A study of Homo sapiens with 6 samples.

Results

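Membrane carriers in a cell are sorted, tethered to their target and fused with it by a small number of protein families, and the genes of these families are described here in HCT116, a human colorectal carcinoma cell line. The genes were chosen by name: syntaxins (STX), syntaxin-binding proteins (STXBP), VAMPs, SNAP23, SNAP25, SNAP29 and SNAP47, VTI1 genes, exocyst subunits (EXOC), sorting nexins (SNX) and vacuolar protein sorting (VPS) genes. VPS genes of the ESCRT machinery (VPS4A, VPS4B, VPS25, VPS28, VPS36 and the VPS37 genes) were left out. The choice found 54 genes among the 7681 that the deposited tables hold, and all 54 are typed as mRNA. RefSeq annotates 105 human protein-coding genes with such names, so 51.4% of them were listed, against 37.9% of all 20056 RefSeq protein-coding genes. How many genes the authors tested is unknown, so either share may also reflect how many of the genes were measured.

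RNA was sequenced from 6 cultures. There were 3 of HCT116 cells labelled Rab27B KO, made with CRISPR/Cas9, and 3 of wild-type HCT116 cells, all left untreated for 48 hours. The sources used here do not say whether the edited cells were 1 clone or a pool. The tables give, for each gene, the authors' log2 fold change (Rab27B KO divided by wild type) and a q-value (a p-value adjusted for the number of genes tested), and hold only genes with a q-value under 0.05. They give no value per sample, so the depth, the level of a gene in each culture and the spread between replicates are unknown. A fold change therefore stands here without a standard error.

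RAB27B, the gene named in the label, was 36.7-fold higher in the libraries labelled Rab27B KO than in those labelled wild type according to the authors' deposited table, which goes against the label. Whether the labels or the direction of the ratio were exchanged cannot be told from the tables. "Higher" and "lower" below refer to the libraries labelled Rab27B KO, as the column headers state the ratio. An exchange would turn every direction below round: each rise would be a fall, each count of higher genes a count of lower genes, and the sizes of the changes would stay. The values are from whole cultures, in which a change in the number of cells of a kind and a change in RNA per cell cannot be told apart.

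SNARE proteins drive fusion: an R-SNARE on the carrier (a VAMP) zips together with Qa-, Qb- and Qc-SNAREs on the target (syntaxins and SNAP proteins), while Sec1/Munc18 proteins guide the assembly and the ATPase NSF takes the spent complex apart. Before fusion, long multisubunit tethers catch the carrier. The exocyst does so at the plasma membrane, HOPS and CORVET at late and early endosomes, and GARP and EARP at the trans-Golgi network and recycling endosomes. Sorting nexins bind phosphoinositides through a PX domain and, with the retromer and retriever complexes, carry receptors back out of endosomes. Rab27 proteins act on the same route, since they dock secretory granules and multivesicular endosomes for SNARE-driven release.

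The families went in different directions. Of the 54 genes, 29 were higher and 25 lower in the libraries labelled Rab27B KO, a share higher of 53.7% (25 higher and 29 lower if the ratio is turned round). Of all listed genes 50.7% were higher and 49.3% lower. SNAREs leaned upward, with 13 higher and 3 lower, and so did sorting nexins, with 11 higher and 5 lower. The exocyst had 5 lower subunits and none higher, and the VPS genes had 11 lower and 2 higher. The median log2 fold change was 0.39 for the 16 listed SNAREs and 0.24 for the 16 listed sorting nexins, against -0.19 for the 5 exocyst and -0.25 for the 13 VPS genes. Over all 7681 listed genes it was 0.12. These counts and medians describe the lists and were not tested, since the tables hold no genes that missed the threshold. The families also differ in transcript length, which goes with direction over all listed genes (values below).

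**Figure D1:**
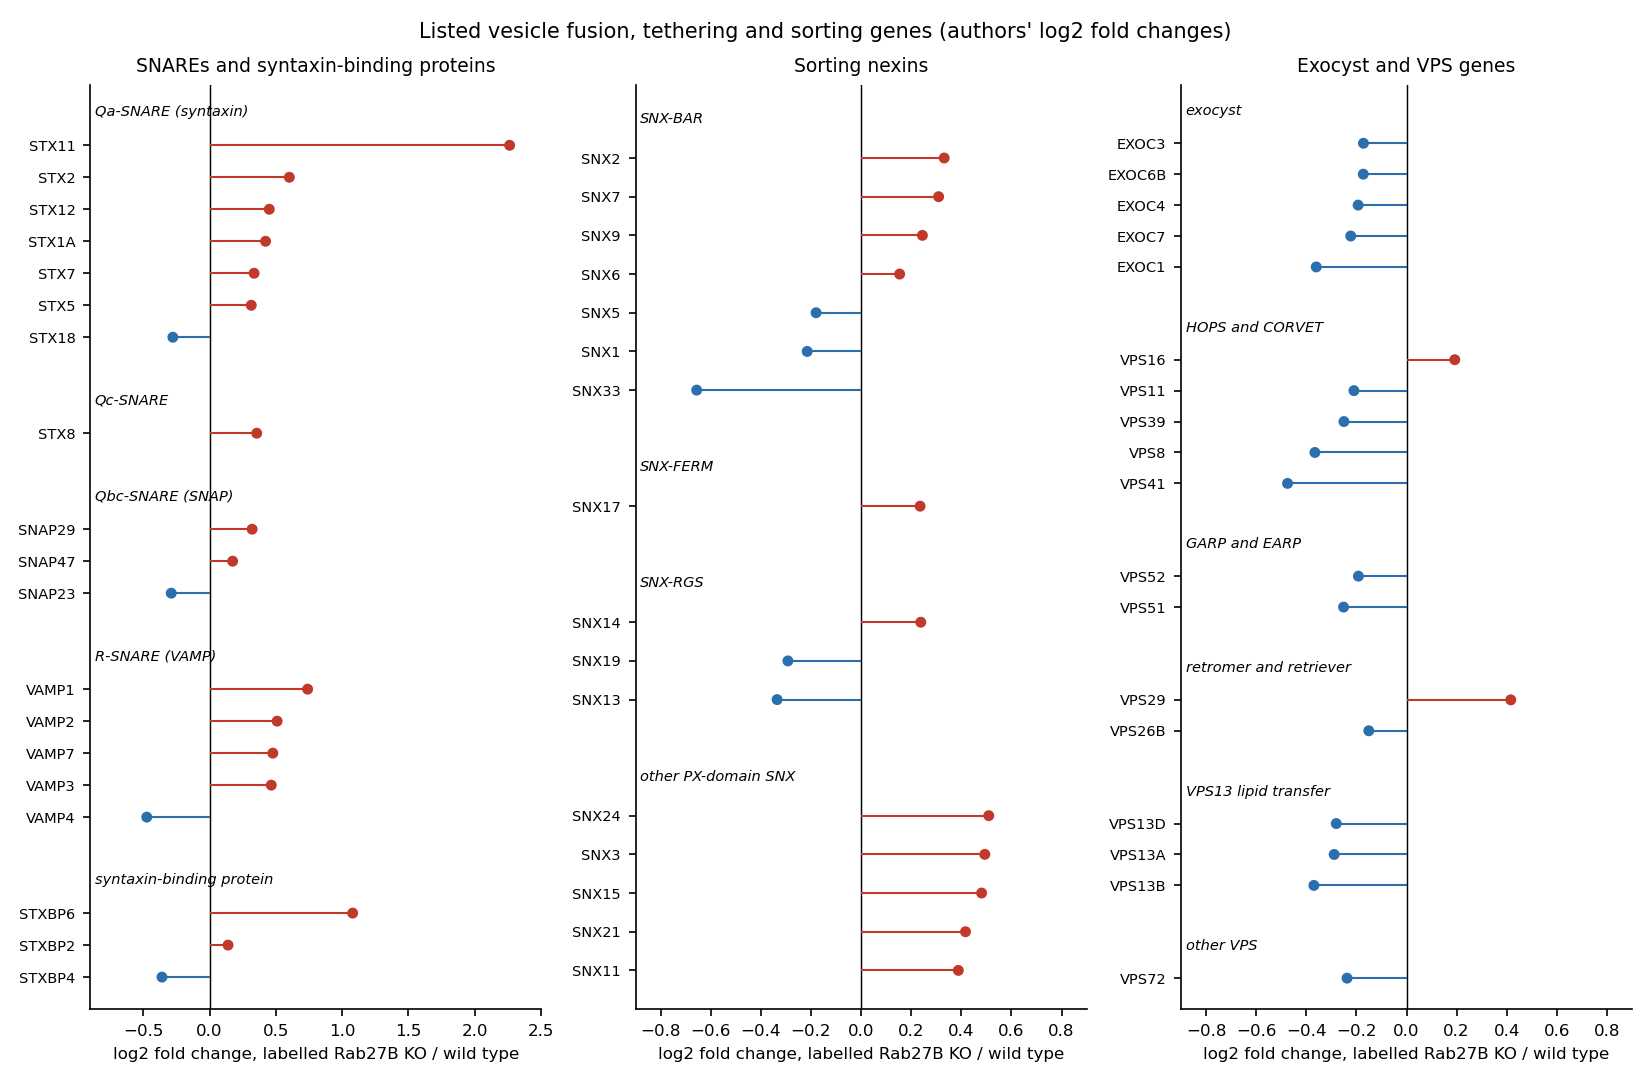
The authors' log2 fold change of single listed genes of the set (horizontal axis, libraries labelled Rab27B KO over wild type; red for higher, blue for lower), grouped by role in 3 panels with their own scales. STX11 stands farthest out at 2.26, and all 5 exocyst subunits lie left of 0. The tables give no error for a single gene.

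Most of the changes were small. Only 2 of the 54 genes reached an absolute log2 fold change of 1, against 12.6% of all listed genes, and both were higher. For 48 of the 54 (88.9%) the change was less than 1.5-fold in either direction, against 69.2% of listed genes. The median absolute log2 fold change was 0.33 over the 54 genes and 0.41 over all listed genes. A q-value under 0.01 was held by 43 of the 54 genes, compared with 84.9% of listed genes. All 11 others had q-values between 0.01 and 0.05, and EXOC3, EXOC4, EXOC6B, VPS11 and VPS16 were among them.

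**Figure D2:**
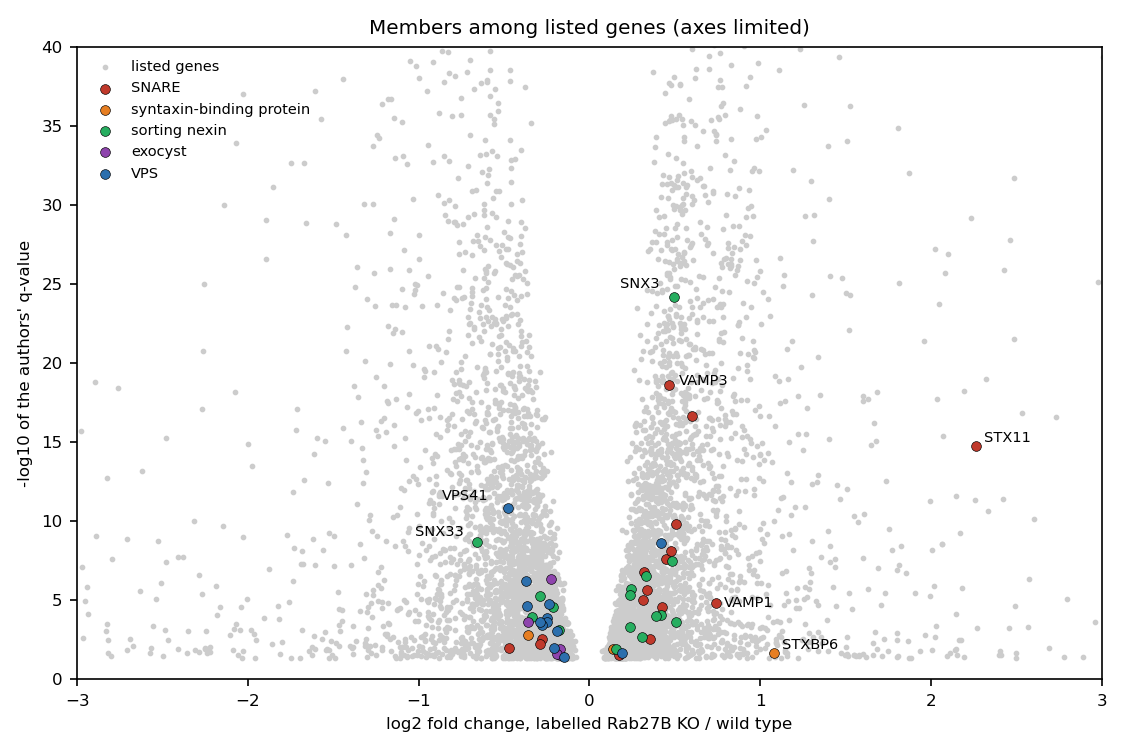
The authors' log2 fold change (horizontal axis) against -log10 of their q-value (vertical axis) for listed genes in grey and genes of the set in colour by family; listed genes beyond the axes are not drawn. SNX3 (q = 6.26e-25) stands highest among the coloured points, while STXBP6, although 2.11-fold higher, lies near the threshold (q = 0.0238).

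STX11 changed most. This Qa-SNARE, best known from cytotoxic lymphocytes, where it is needed for granule release, was 4.80-fold higher in the libraries labelled Rab27B KO per the authors' deposited table (log2 fold change 2.26, q = 1.71e-15). The gene lies on chromosome 6 from 144139963 to 144191939 (GRCh38.p14), and the 1 start that the RefSeq promoter table gives for it lies inside this span. The 250 bases before that start, at chr6:144150267-144150516 on the plus strand, are shown because they belong to the gene with the largest change of the set. They hold 33 CpG dinucleotides and 78.0% G or C, and none of the 6 motifs searched (below), so that no base is in capitals.
STX11: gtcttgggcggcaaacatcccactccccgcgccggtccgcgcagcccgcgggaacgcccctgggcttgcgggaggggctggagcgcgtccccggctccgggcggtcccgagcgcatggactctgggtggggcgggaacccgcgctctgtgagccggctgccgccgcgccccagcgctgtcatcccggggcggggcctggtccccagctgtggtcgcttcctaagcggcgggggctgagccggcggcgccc

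The other listed Qa-SNAREs changed less and mostly upward. STX2, a plasma membrane syntaxin, was 1.52-fold higher (q = 2.32e-17), and STX12 of recycling endosomes was 1.37-fold higher (q = 2.60e-08) per the authors' deposited table. STX7 of late endosomes was 1.26-fold higher (q = 2.15e-06) per the authors' deposited table, and its usual Qc partner STX8 was 1.28-fold higher (q = 0.00308). STX1A, the syntaxin of regulated secretion, and STX5, which works between ER and Golgi, had log2 fold changes of 0.42 and 0.31 per the authors' deposited table. STX18, a SNARE of the ER, was the 1 listed syntaxin that was lower, at a log2 fold change of -0.28 per the authors' deposited table.

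Among the R-SNAREs, 4 of the 5 listed were higher, where 50.7% of all listed genes were higher. VAMP1 was 1.67-fold (q = 1.52e-05) and VAMP2 1.42-fold higher (q = 1.46e-10) per the authors' deposited table; these are the synaptobrevins of regulated exocytosis. VAMP3 of recycling endosomes was 1.38-fold higher (q = 2.38e-19) per the authors' deposited table. VAMP7, which serves fusion with and secretion from lysosomes, stood close to it at 1.39-fold higher (q = 7.40e-09) per the authors' deposited table. VAMP4 of the trans-Golgi network went the other way, 1.39-fold lower with a q-value of 0.0108 per the authors' deposited table.

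The SNAP proteins, which supply a Qb and a Qc helix each, were split. SNAP29, a partner of STX17 on autophagosomes, was 1.25-fold higher (q = 1.56e-07) per the authors' deposited table, and SNAP47 1.13-fold higher (q = 0.0301). SNAP23, the widely expressed plasma membrane SNAP, was 1.22-fold lower (q = 0.00626) per the authors' deposited table. Both VTI1 genes, STX3, STX4, STX6, STX16, STX17 and VAMP8 were among the 13 SNAREs of the name list that stood in neither table. For such genes it is unknown whether they missed the threshold or were not measured.

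Genes of SNARE families outside the name list gave values in 1 direction. Of 10 such genes 5 were listed, all of them higher, where 50.7% of all listed genes were higher. Whether each of the 10 carries a SNARE motif was not checked. SEC22B, an R-SNARE of the ER, was 1.32-fold higher (q = 3.71e-10) per the authors' deposited table. The Golgi SNARE gene BET1L and the ER SNARE gene USE1 were 1.18-fold (q = 9.48e-05) and 1.38-fold higher (q = 1.02e-04) per the authors' deposited table.

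The syntaxin-binding proteins ranged widely in fold. STXBP6 (amisyn), which carries a VAMP-like helix but no membrane anchor, was 2.11-fold higher (q = 0.0238) per the authors' deposited table, the largest fold of this family with the weakest q-value in it. STXBP2 (Munc18-2), the partner of STX11, was only 1.10-fold higher (q = 0.0127) per the authors' deposited table. STXBP4, named Synip for its binding to STX4, was 1.28-fold lower (q = 0.00152) per the authors' deposited table.

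Genes that prime and take apart SNARE complexes moved unevenly. Of 17 such genes 12 were listed, 7 higher and 5 lower, with a median log2 fold change of 0.22. NSF was 1.46-fold higher (q = 3.73e-31) and its adaptor NAPA (alpha-SNAP) 1.48-fold higher (q = 1.91e-31) per the authors' deposited table; the other adaptor genes NAPB and NAPG had log2 fold changes of 0.54 and 0.37. The 5 lower genes included UNC13D (Munc13-4), a Rab27 effector that primes granules, at 5.18-fold lower (q = 1.69e-92) per the authors' deposited table. SYT7, a calcium sensor of lysosome secretion, was 1.46-fold lower (q = 1.32e-31) per the authors' deposited table. STX11, STXBP2 and UNC13D act together in the release of cytotoxic granules. Their log2 fold changes per the authors' deposited table were 2.26, 0.14 and -2.37, so the 3 genes did not move together.

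Every listed exocyst subunit was lower, by small amounts. EXOC1, a subunit that binds the plasma membrane, was 1.28-fold lower (q = 2.48e-04), and EXOC7, the other membrane-binding subunit, was 1.17-fold lower (q = 4.34e-07) per the authors' deposited table. EXOC4 and EXOC6B had log2 fold changes of -0.19 (q = 0.0265) and -0.17 (q = 0.0132), and EXOC3 one of -0.17, per the authors' deposited table. With q-values of 0.0132 or more, these 3 subunits pass 0.05 but not 0.01, where only EXOC1 and EXOC7 remained. EXOC2, EXOC5, EXOC6, EXOC8 and the 4 exocyst-like genes were in neither table.

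GTPases and other regulators of the exocyst went both ways. Of 18 such genes 11 were listed, 6 higher and 5 lower, with a median log2 fold change of 0.14. RALA, a GTPase that binds the exocyst directly, was 1.49-fold lower (q = 1.36e-15) per the authors' deposited table, and the polarity gene PARD3 1.34-fold lower (q = 1.40e-12). RHOQ (TC10), which recruits the exocyst in insulin-stimulated fat cells, was 1.50-fold higher (q = 6.64e-22) per the authors' deposited table. CDC42 was 1.20-fold higher (q = 4.50e-10) per the authors' deposited table.

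**Figure D3:**
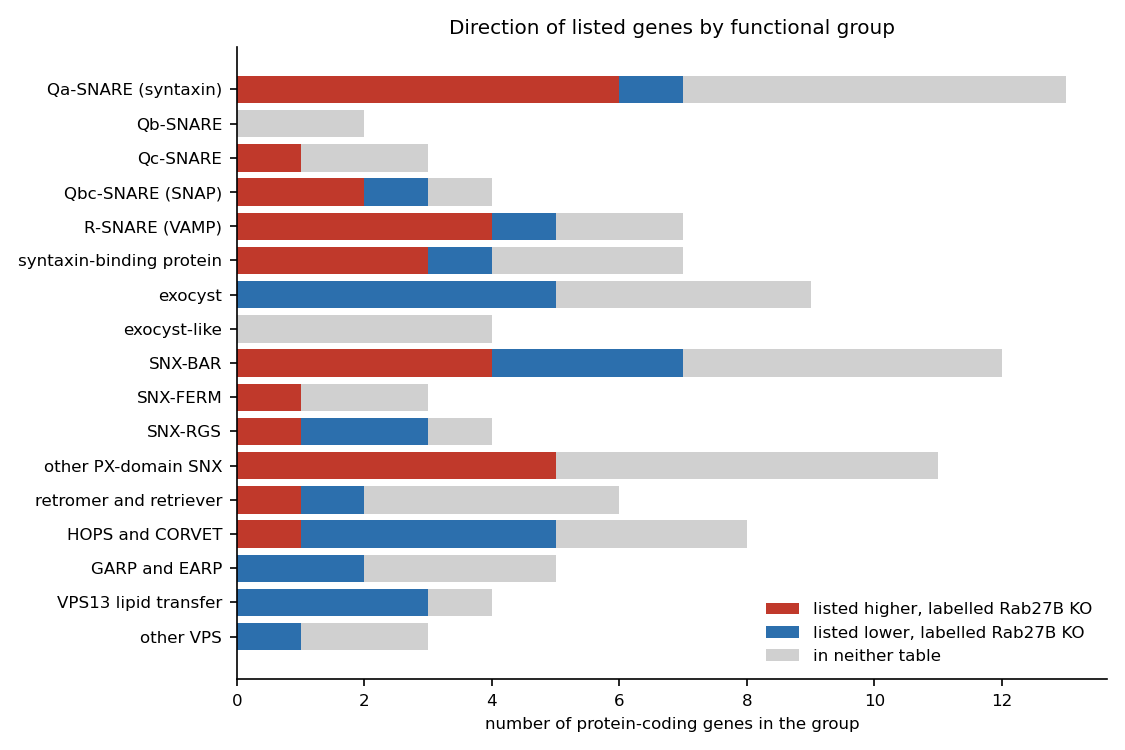
Number of protein-coding genes in each of the 17 functional groups (horizontal axis) that were listed as higher (red), listed as lower (blue) or in neither table (grey). The syntaxins show 6 higher and 1 lower, whereas the exocyst shows 5 lower and HOPS and CORVET 4 lower and 1 higher.

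HOPS and CORVET share a core and differ at their Rab-binding ends. Of 8 VPS genes filed here under HOPS and CORVET 5 were listed, 4 of them lower, where 49.3% of all listed genes were lower. These 8 are not the exact set of subunits: TGFBRAP1, a CORVET gene without a VPS name, is counted with the partners below. VPS41, a HOPS subunit needed for fusion with lysosomes, had the largest fall among the VPS genes at 1.39-fold lower (log2 fold change -0.47, q = 1.59e-11) per the authors' deposited table. VPS39, the other HOPS-specific subunit, was 1.19-fold lower (q = 2.28e-04), and VPS8, which takes the place of VPS41 in CORVET, was 1.29-fold lower (q = 2.53e-05) per the authors' deposited table. The core subunits went both ways, VPS11 at a log2 fold change of -0.21 (q = 0.0107) and VPS16 at 0.19 per the authors' deposited table. VPS18, VPS33A and VPS33B were in neither table. The promoter of VPS41 lies at chr7:38909192-38909441 on the minus strand (GRCh38.p14). It is shown because it belongs to the largest fall among the exocyst, HOPS, CORVET, GARP and EARP genes of the set. Its 250 upstream bases hold 2 CpG dinucleotides and 41.6% G or C, against 33 and 78.0% for STX11, and a CCAAT box on the other strand is in capitals.
VPS41: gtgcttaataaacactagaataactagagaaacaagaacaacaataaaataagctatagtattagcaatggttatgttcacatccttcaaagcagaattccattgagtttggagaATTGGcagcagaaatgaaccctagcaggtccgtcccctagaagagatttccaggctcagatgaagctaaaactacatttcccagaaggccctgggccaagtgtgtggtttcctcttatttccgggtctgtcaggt

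The listed genes filed as partners of these tethers were mostly higher. Of 15 such genes 6 were listed, 5 higher and 1 lower, where 50.7% of all listed genes were higher. RAB7A, the GTPase that HOPS meets on late endosomes, was 1.24-fold higher (q = 1.83e-16), and RAB5C, a GTPase of the CORVET step, was 1.32-fold higher (q = 2.45e-27) per the authors' deposited table. TGFBRAP1, the CORVET counterpart of VPS39 and so a part of the tether, was the lower one at 1.27-fold (q = 2.24e-06) per the authors' deposited table.

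Fusion of autophagosomes with lysosomes uses STX17 or YKT6 with SNAP29, the lysosomal SNAREs VAMP8 and STX7, and HOPS. This group was put together after the values were seen. YKT6, SNAP29 and STX7 were higher, at log2 fold changes of 0.13, 0.32 and 0.34 per the authors' deposited table. The HOPS genes VPS41, VPS39 and VPS11 were lower, at -0.47, -0.25 and -0.21, and VPS16, also of HOPS, was higher at 0.19 per the authors' deposited table. STX17 and VAMP8 were in neither table.

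GARP and EARP gave values for their 2 shared listed subunits. VPS51 was 1.19-fold lower (q = 1.30e-04) and VPS52 1.14-fold lower (q = 9.51e-04) per the authors' deposited table. The subunits that set the complexes apart, VPS54 of GARP and VPS50 of EARP, and also VPS53, were in neither table. Of 22 genes filed under exocyst, HOPS, CORVET, GARP and EARP, 12 were listed, 11 lower and 1 higher. That 1 was VPS16. Of all listed genes 49.3% were lower. A q-value under 0.01 was held by 7 of the 12. EXOC1, EXOC4, VPS39 and VPS41 lie on chromosomes 4, 7 and 15, where 16.8%, 33.0% and 19.8% of listed genes were higher (below). In the fourth class of transcript length (below), which holds 3 of these exocyst and 3 of these VPS genes, 41.0% of listed genes were higher. The part of chromosome and length in this count was not tested. The tethers COG, TRAPP and Dsl1, not counted here, had 5 higher and 5 lower of 10 listed genes.

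The VPS13 proteins are bridges that move lipids between membranes in contact. VPS13B of the Golgi was 1.29-fold lower (q = 6.38e-07), VPS13A 1.22-fold lower (q = 2.39e-04) and VPS13D 1.21-fold lower (q = 3.53e-04) per the authors' deposited table. VPS13C was in neither table. VPS72 matches the name rule but encodes a subunit of chromatin remodelling complexes and no tether. It was 1.18-fold lower (q = 1.76e-05) per the authors' deposited table.

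Sorting nexins with a BAR domain bend endosomal membrane into tubules. In ESCPE-1, the complex that returns receptors to the Golgi, SNX1 or SNX2 pairs with SNX5 or SNX6. The paralogs went in opposite directions. SNX2 was 1.26-fold higher (q = 2.86e-07) and SNX1 1.16-fold lower (q = 2.57e-05) per the authors' deposited table. SNX6 and SNX5 had log2 fold changes of 0.15 and -0.18 per the authors' deposited table. SNX33, an endocytic nexin with an SH3 domain, had the largest fall of all 54 genes at 1.58-fold lower (log2 fold change -0.66, q = 2.04e-09) per the authors' deposited table. It lies on chromosome 15 from 75647912 to 75662301 (GRCh38.p14). SNX9, of the same SH3 subfamily, was 1.18-fold higher (q = 1.98e-06) per the authors' deposited table, and SNX18, the third of that subfamily, was in neither table. SNX7, which pairs with SNX4 in endosome recycling and autophagy, had a log2 fold change of 0.31 per the authors' deposited table.

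The nexins outside the BAR, FERM and RGS subfamilies were higher wherever listed, 5 of 11 genes. Their transcripts are short, 1755 to 2733 bases. In the 2 classes of transcript length that hold them (below), 73.9% and 60.1% of all listed genes were higher. SNX3, the adaptor by which retromer retrieves the Wnt carrier WLS, was 1.41-fold higher (q = 6.26e-25) per the authors' deposited table. SNX24 was 1.42-fold (q = 2.27e-04), SNX15 1.40-fold (q = 3.39e-08), SNX21 1.33-fold (q = 9.29e-05) and SNX11 1.31-fold higher (q = 9.72e-05) per the authors' deposited table. SNX17, the FERM nexin that works with retriever, was 1.18-fold higher (q = 4.53e-06) per the authors' deposited table. Of the RGS nexins, which sit in the ER membrane, SNX13 was 1.26-fold lower (q = 1.26e-04) and SNX19 1.22-fold lower (q = 5.74e-06), but SNX14 was 1.18-fold higher (q = 5.24e-04) per the authors' deposited table.

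Of 6 retromer and retriever genes 2 were listed (33.3%), near the 37.9% of all RefSeq protein-coding genes. VPS29, the subunit that both complexes share, was 1.33-fold higher (q = 2.31e-09), and VPS26B, of retromer alone, was 1.11-fold lower (q = 0.0411) per the authors' deposited table. VPS35, VPS26A, VPS26C and VPS35L were in neither table. Of 21 partner genes in the actin-nucleating WASH complex, the CCC complex and other retromer partners 11 were listed, 5 higher and 6 lower. WASHC1 was 1.65-fold lower (q = 1.54e-63) and WASHC4 1.39-fold higher (q = 5.38e-07) per the authors' deposited table, so subunits of 1 complex diverged. WASHC2A was 1.29-fold lower (q = 2.59e-07) per the authors' deposited table. WASHC1 and WASHC2A have near-identical copies in the genome, so reads split between copies would make both values uncertain.

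Receptors that these routes carry were also looked up. Of 17 cargo genes 8 were listed, 6 higher and 2 lower, with a median log2 fold change of 0.40. Of all listed genes 50.7% were higher, and their median was 0.12. ITGB1, a cargo of SNX17, was 1.50-fold higher (q = 1.18e-54) per the authors' deposited table. SORT1 (sortilin), a retromer cargo, was 1.74-fold lower (q = 5.59e-43) per the authors' deposited table. SLC2A1, a glucose transporter recycled through SNX27, was 1.33-fold higher (q = 6.61e-29) per the authors' deposited table.

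**Figure D4:**
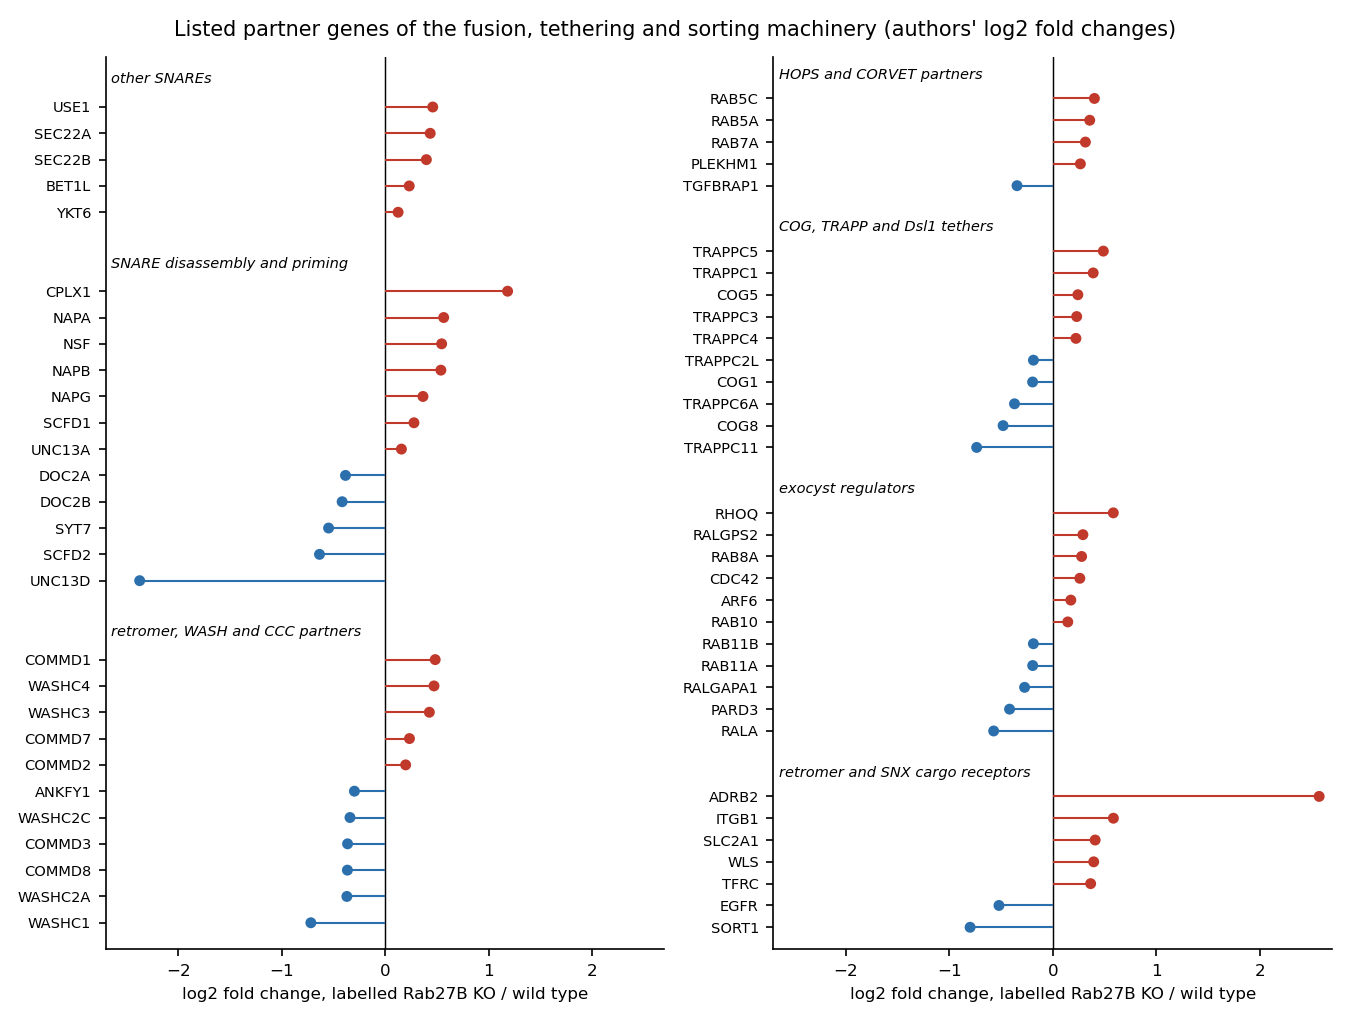
The authors' log2 fold change (horizontal axis, libraries labelled Rab27B KO over wild type; red for higher, blue for lower) of listed genes in 7 lists of partners. The 5 further genes of SNARE families all lie right of 0, and UNC13D lies farthest left at -2.37.

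Direction went with transcript length, in these genes as in all listed genes. The longest coding transcript had a median of 2400 bases for the 29 higher genes and 4751 bases for the 25 lower genes. Over all listed genes the medians were 2809 bases for higher and 4287 bases for lower genes. Splitting the listed genes into 5 length classes, the share higher was 73.9% in the shortest class (312 to 1991 bases) and 30.2% in the longest (5958 to 34526 bases). Of the 54 genes, 9 of 10 in the shortest class and 1 of 8 in the longest were higher. That 1 was STX7.

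The family pattern can be read beside these classes. In the shorter 2 classes together 8 SNAREs were higher and 2 lower, the VPS genes were even with 2 higher and 2 lower, and 1 exocyst gene was lower. In the third class (2933 to 4145 bases), where 49.0% of listed genes were higher, 3 SNAREs were higher and none lower, while 3 VPS genes and 1 exocyst gene were lower and none of either was higher. In the fourth class (4146 to 5956 bases), where 41.0% of listed genes were higher, the SNAREs were even with 1 higher and 1 lower, and 3 exocyst and 3 VPS genes were lower and none higher. In the longest class 1 SNARE was higher, and the 3 listed VPS13 genes, the only VPS genes there, were lower. Sorting nexins had 8 higher and 1 lower in the shorter 2 classes, 3 higher and 1 lower in the next 2 together, and 3 lower in the longest. The part of transcript length in the split between families was not tested.

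**Figure D5:**
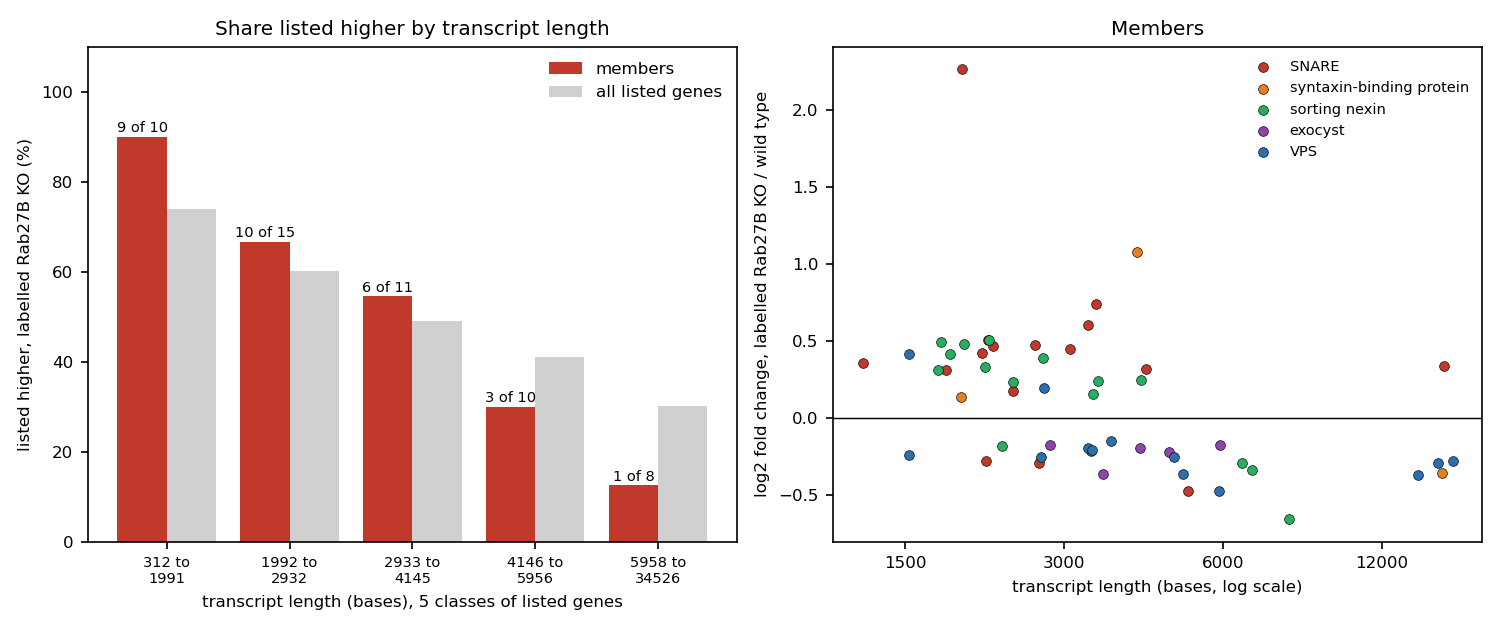
Left, the share of genes listed as higher (vertical axis, %) in 5 classes of transcript length, for the 54 genes in red, with counts, and for all listed genes in grey; right, the log2 fold change (vertical axis) of single genes against their transcript length on a log scale, coloured by family. The red bars fall with length, as the grey bars do, with 9 of 10 higher in the shortest class and 1 of 8 in the longest.

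Chromosome also moved with direction. Chromosomes 4, 7, 13 and 15 were chosen with earlier results of these data known, and no other chromosome is described. Of their listed genes 16.8%, 33.0%, 13.5% and 19.8% were higher. On these chromosomes together, 22.9% of 1103 listed genes were higher, against 50.7% of all listed genes. Of the 54 genes 10 lie there, and 9 of these were lower: EXOC1, STX18, EXOC4, SNX13, VPS41, SNAP23, SNX1, SNX33 and VPS39. STX1A was the higher one. Without these chromosomes 28 genes were higher and 16 lower, and the exocyst kept 3 lower subunits. Since these chromosomes lean lower, leaving them out also raises the share higher over all listed genes. The largest fall of the set, SNX33, is on these chromosomes. So is VPS41, the largest fall among the exocyst, HOPS, CORVET, GARP and EARP genes of the 54. The part of chromosome in these changes was not tested.

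Promoter sequences of RefSeq (GRCh38.p14, 250 bases before to 50 after each annotated start) were found for 47 of the 54 genes, in 65 windows. They were searched on both strands for 6 motifs: the E-box CACGTG, TCACGTGA, the core of the CLEAR element of lysosomal genes, which contains that E-box, the AP-1 site TGANTCA, the cyclic AMP element TGACGTCA, the CCAAT box and GAAANNGAA, a pattern of interferon response elements. An E-box was in the promoters of 8 of the 47 genes (17.0%), against 10.9% of 15843 protein-coding genes with a promoter in the table. Of these 8, SNAP29, STX2, STXBP2 and VPS16 were higher and EXOC1, STX18, VPS8 and VPS11 lower, so genes of both directions held it. The CLEAR core was in 1 of the 47, the promoter of VPS11, and in 1.65% of all these genes. An AP-1 site was in 1 of the 47, the promoter of VPS8, and in 8.04% of all. The interferon pattern was also in 1, that of VPS11, compared with 9.22% of all. A CCAAT box was in 21 of the 47 (44.7%), against 42.1% of all.

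Sites of both directions are shown with 12 bases on each side and the motif in capitals, to let the flanks be compared. The E-box sites lie at chr22:20858811-20858840 (plus strand) for SNAP29, chr20:2840667-2840696 (plus) for VPS16, chr12:130839399-130839428 (minus) for STX2 and chr11:119067772-119067801 (plus) for VPS11, whose E-box is part of the CLEAR core. The cyclic AMP elements, found in 2 of the 47 genes against 3.00% of all, lie at chr1:27773013-27773044 (plus) for STX12, which was higher, and chr20:17968844-17968875 (minus) for SNX5, which was lower. The flanks differ from site to site, and a match to these letters describes the sequence and no binding.
SNAP29: cggctttcccgcCACGTGacctctcagttg
VPS16: cggcggcctcgcCACGTGacccggacgggc
STX2: agggacaaacagCACGTGtagcggaactgc
VPS11: gctggctcagctCACGTGacaaagctcccg
STX12: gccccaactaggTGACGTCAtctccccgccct
SNX5: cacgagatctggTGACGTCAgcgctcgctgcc

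Some of the 54 genes have copies or overlapping partners that could share reads. RefSeq names a pseudogene after 12 of them, among them VPS51 with 14, SNX19 with 4 and SNX2, SNX3 and SNX5 with 2 each. An antisense gene named after the member exists for EXOC1, EXOC3, SNX9, STX18 and VPS13A, and the sources used here do not say whether reads were counted by strand. The values of these genes are uncertain to that extent.

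Markers of cell types were read for what they say of the cultures. Of 7 markers of colorectal epithelium 6 were listed, 3 higher and 3 lower. EPCAM and CDH1 were 2.23-fold and 2.22-fold lower and KRT8 1.53-fold higher per the authors' deposited table. Of 4 neuroendocrine markers, which go with regulated secretion, 3 were listed: SYP at 3.33-fold and ENO2 at 2.91-fold higher and NCAM1 at 7.09-fold lower per the authors' deposited table. Of 5 leukocyte markers CD68 and LYZ were higher, and of 5 fibroblast and endothelial markers COL3A1 was higher and COL1A1 lower. PTPRC, CD3E, PECAM1, VWF and PDGFRB were in neither table. The part of such cells or programmes in the changes of STX11 and the VAMP genes was not tested.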

How the data were processed

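Column-purified RNA was sequenced on the DNBSEQ platform, per the labels' protocols. The submitters' processing notes name HISAT, Bowtie2 and the build GRCh38 without roles, and the sources used here do not give the counting, scaling or test. The authors deposited log2 fold changes (Rab27B KO divided by wild type) and q-values, per the file headers, and for higher genes also the linear ratio, which matched the log2 values within a relative difference of 4.53e-10. Samples were grouped by title, 3 and 3. The tables hold no value per sample, so the authors' q-value at 0.05 served as the call and no test was added. Depth is unknown.

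Computed here were counts, medians and folds from the log2 values (Python 3.11.15, pandas 2.3.3, numpy 2.4.6). Gene IDs were matched to RefSeq (7656 of 7681), and the longest coding transcript came from GENCODE release 29 (7610 genes). The name rule and motif search were tested on made-up input. Members, lists and alternatives were chosen with earlier results of these data known. Q-values are given for the 12 largest changes and for up to 4 genes per group or list with the smallest q-value. NAPB, NAPG, TGFBRAP1, the motifs, the neighbouring pairs and the autophagosome group were chosen after values were seen. Some genes are counted in the totals but not reported here and not drawn as points.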

Additional observations from a re-analysis of the deposited data

How the results depend on the processing

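No paired analysis was possible because the tables hold no value per sample; for the same reason another normalization, a filter on low values and leaving out replicates were not run. Counts of higher and lower genes (29 and 25) were 24 and 19 at a q-value below 0.01 and 22 and 16 below 0.001. At an absolute log2 fold change of at least 0.5 they were 7 and 1, and at 1 they were 2 and 0, by construction of fewer genes. The share higher over all listed genes was not computed at these fold limits, so no lean of the larger changes is read from these counts. Without chromosomes 4, 7, 13 and 15, where 22.9% of listed genes were higher, the counts were 28 and 16. Leaving these chromosomes out also raises the share higher over all listed genes. Without VPS72 the counts were 29 and 24, and by RefSeq symbol 29 and 25. Without genes that have a named pseudogene, an alternative chosen after seeing the data, they were 25 and 17. The median log2 fold change (0.164) was 0.245, 0.28, 0.671, 1.671, 0.241, 0.174 and 0.237 for q below 0.01, q below 0.001, at least 0.5, at least 1, without those chromosomes, without VPS72 and without genes that have a pseudogene. It did not change sign. Of the 54 genes 11 lost their call at 0.01 and 16 at 0.001. The exocyst had 2 lower subunits at 0.01. Unknown depth limits every value: folds of rare transcripts cannot be told from those of abundant ones.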

Other observations

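The listed tethers of the early secretory pathway went both ways. Of 26 genes of COG, TRAPP and Dsl1 10 were listed, 5 higher and 5 lower, with a median log2 fold change of 0.02. Of all listed genes 50.7% were higher, and their median was 0.12. TRAPPC1 was 1.31-fold higher (q = 7.76e-19) and TRAPPC5 1.40-fold higher (q = 5.15e-11) per the authors' deposited table. TRAPPC11, a subunit of the larger TRAPP complex, was 1.67-fold lower (q = 1.64e-12) and the Golgi tether gene COG8 1.39-fold lower (q = 1.46e-12) per the authors' deposited table. NBAS, RINT1 and ZW10 of Dsl1 were in neither table. Whether these tethers differ from the exocyst in direction was not tested.

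Of the 54 genes 3 pairs lie within 1 Mb of each other (GRCh38.p14). SNX2 and SNX24 are 11.1 kb apart on chromosome 5 and were both higher, at log2 fold changes of 0.33 and 0.51 per the authors' deposited table. VPS39 and SNAP23 are 283 kb apart on chromosome 15 and were both lower, at -0.25 and -0.29 per the authors' deposited table. SNX15 and VPS51 are 55.6 kb apart on chromosome 11 and went in opposite directions, at 0.48 and -0.25 per the authors' deposited table.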
